A study of Bos taurus with 6 samples.

Results

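The genes described here encode maturation-promoting factor, its small partner subunits and the enzymes that switch it on and off. They are the 10 genes CDK1, CCNB1, CCNB2, CCNA2, CKS1B, CKS2, WEE2, PKMYT1, CDC25B and CDC25C, found by symbol among the 17325 genes listed for each library. The RNA came from cattle oocytes that had matured in culture and reached metaphase II, where an unfertilized egg pauses. 3 libraries are labelled siMTFP1 (knockdown of MTFP1, a gene for a mitochondrial inner membrane protein tied to fission) and 3 are labelled NC (negative control). The labels give no breed, age, dose or time, and they do not say how many oocytes entered a library or whether replicates came from separate cultures, so the p-values rest on the spread between these libraries alone, which may be technical. Values are FPKM, which counts sequenced fragments relative to transcript length and library total, so levels of different genes are compared per length.

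Maturation-promoting factor is the kinase CDK1 bound to a B-type cyclin. In an immature oocyte the kinase is held inactive by phosphate groups that WEE2 and PKMYT1 place on it, and CDC25 phosphatases remove them when meiosis resumes. CKS proteins dock on the complex and help it act on substrates that are already phosphorylated. Cyclin B is destroyed at the end of the first meiotic division and made again for the second, and a high kinase activity keeps the egg at metaphase II. These are properties of the proteins, which RNA levels do not measure.

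The libraries resembled each other and carried the markers of oocytes. Their FPKM values summed to 784366 to 892790.4 in siMTFP1 libraries and to 823442.5 to 862657 in NC libraries, and pairwise correlations of log2 values across the 9730 tested genes lay between 0.971 and 0.986, genes not being independent replicates. The depth of sequencing cannot be read from FPKM and is unknown. MTFP1 itself was at 0.43, 0.58 and 1.15 FPKM in siMTFP1 libraries, against 0.53, 0.55 and 0.05 FPKM in NC libraries. Its mean was not lower under the knockdown label (log2 difference 0.32, or 0.14 without NC 3 and 0.15 without siMTFP1 3, exact two-sided permutation test, p = 0.4, the smallest possible p being 0.1), so each direction below is that of the labels. MTFP1 averaged 0.548 FPKM over the 6 libraries, below the mean of 1 FPKM that a tested gene had to reach. At so low a level these values cannot show whether the knockdown worked. Of 10 oocyte markers 9 were matched, and they summed to 19704 to 20599 FPKM in siMTFP1 libraries and 19703 to 21667 FPKM in NC libraries. Of these 9, 6 had a higher and 3 a lower mean log2 value in siMTFP1 libraries. The zona pellucida gene ZP2 was the one of the 9 whose groups did not overlap, beside 11.0% of all tested genes. ZP2 was at 3135 ± 96.3 FPKM in siMTFP1 libraries and 4566 ± 179 FPKM in NC libraries (SD, n = 3 each, limma adjusted p = 0.447). The 18 cumulus and granulosa markers together summed to 166 to 213 FPKM in siMTFP1 libraries and 156 to 176 FPKM in NC libraries. In siMTFP1 libraries 8 of the 10 tested ones had a higher mean log2 value and 2, PTX3 and TNFAIP6, a lower one. Over all tested genes 5275 were higher and 4455 lower. The log2 differences of these markers ran from -1.36 for TNFAIP6 to 1.46 for INHA, and in both genes 1 library stood far above the rest. TNFAIP6 was at 17.14 FPKM in NC 3, against 5.31 and 1.51 FPKM in NC 1 and 2. INHA was at 15.65 FPKM in siMTFP1 2, against 6.53 and 1.42 FPKM in siMTFP1 1 and 3. Of the 10 tested cumulus and granulosa markers SERPINE2 alone did not overlap between groups, beside 11.0% of all tested genes. SERPINE2 was at 28.6 ± 13.0 FPKM in siMTFP1 libraries and 14.5 ± 1.69 FPKM in NC libraries (limma adjusted p = 0.720). STAR and HAS2 had the highest levels of that list, with means of 65.6 and 41.5 FPKM over the 6 libraries, while FSHR, FOXL2, AMH and AMHR2 were at or near 0, with means of at most 0.0450 FPKM. The 3 matched blood markers summed to 24.4 to 58.3 FPKM in siMTFP1 libraries and 45.4 to 74.1 FPKM in NC libraries. Nearly all of that was HBA, the 1 tested gene among them, while PTPRC and CD68 reached at most 0.05 and 0.5 FPKM. The 4 markers of dividing somatic cells summed to 455 to 586 FPKM in siMTFP1 libraries and 535 to 668 FPKM in NC libraries, with 1 higher and 3 lower on average in siMTFP1 libraries. Most of that sum was TYMS, at 472 ± 80.3 FPKM in siMTFP1 libraries and 550 ± 68.8 FPKM in NC libraries. MKI67, the 1 higher marker, averaged 1.11 FPKM in siMTFP1 libraries and 0.977 FPKM in NC libraries. TOP2A averaged 22.6 FPKM in siMTFP1 libraries and 22.7 FPKM in NC libraries, and RRM2 29.3 and 35.9 FPKM. The part of other cells in the values below was not tested.

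The 10 genes spanned a wide range of levels, from CKS1B at a mean of 26646 FPKM over the 6 libraries to PKMYT1 at 4.40 FPKM. CKS1B, CKS2 and CCNB1 were the genes of rank 3, 6 and 10 of all 17325 by mean FPKM. Together the 10 genes took 5.08% to 5.69% of the FPKM sum in siMTFP1 libraries and 4.82% to 5.94% in NC libraries. In descending order of mean the genes were CKS1B, CKS2, CCNB1, CCNB2, WEE2, CCNA2, CDC25C, CDK1, CDC25B and PKMYT1. The ranges of neighbours in that order did not overlap over the 6 libraries, except those of CCNB2 and WEE2, whose order held in 5 of 6 libraries.

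**Figure D1:**
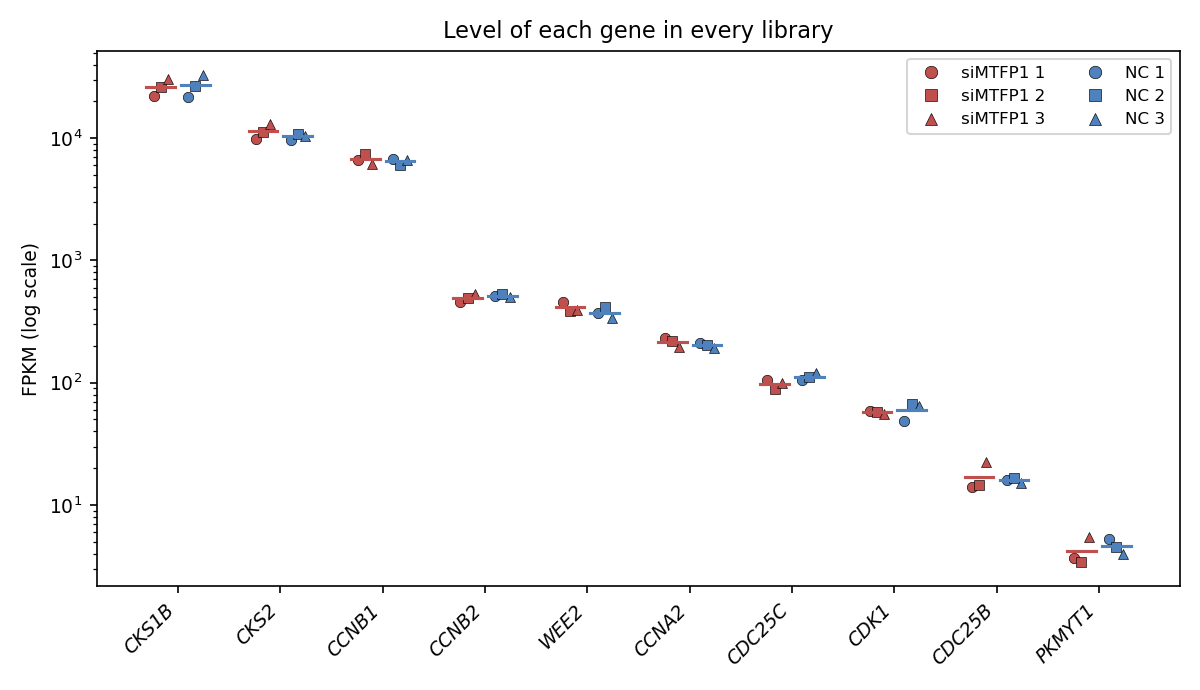
FPKM on a log scale (vertical axis) of the 10 genes in the 3 siMTFP1 libraries (red) and 3 NC libraries (blue), ordered by mean level; points are libraries, with the replicate number given by the marker, and lines are group means. The levels run from 21826 to 32887 FPKM for CKS1B down to 3.41 to 5.50 FPKM for PKMYT1, and the 2 groups overlap in each gene.

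CDK1, the catalytic kinase, had one of the lower levels of the set. It was at 58.9, 57.99 and 54.98 FPKM in siMTFP1 libraries, against 48.9, 67.0 and 64.0 FPKM in NC libraries. The siMTFP1 values lay inside the range of the NC values. The means were 57.3 ± 2.05 FPKM in siMTFP1 libraries and 60.0 ± 9.73 FPKM in NC libraries (SD, n = 3 each), and the gene ranked 1671 by mean. If a library was a pool of oocytes, fewer oocytes of a given state and a smaller share of CDK1 RNA in each oocyte cannot be told apart.

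Among the cyclins, CCNB1 was by far the most abundant. CCNB1 encodes cyclin B1, the main activating partner of CDK1 in meiosis, and was at 6601, 7480 and 6133 FPKM in siMTFP1 libraries, against 6805, 6063 and 6584 FPKM in NC libraries. The highest value was that of siMTFP1 2 and the lowest that of NC 2, and the groups overlapped. CCNB2, the second B-type cyclin, was at 456, 495 and 535 FPKM in siMTFP1 libraries, against 513, 528 and 507 FPKM in NC libraries. The siMTFP1 libraries spread more widely than the NC libraries and lay on both sides of them. CCNB2 had the smallest relative spread of the 10 genes, with a coefficient of variation of 5.63% over the 6 libraries.

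CCNA2 encodes cyclin A2, a partner of CDK2 and CDK1 that acts in DNA replication and entry into division. It was at 231, 220 and 196 FPKM in siMTFP1 libraries, against 210, 202 and 194 FPKM in NC libraries. 2 of 3 siMTFP1 libraries lay above the NC libraries, and siMTFP1 3 lay among them. The related genes outside the set were lower: the B-type cyclin CCNB3 averaged 46.7 ± 4.72 FPKM in siMTFP1 libraries and 52.4 ± 13.3 FPKM in NC libraries, and the A-type cyclin CCNA1 averaged 8.19 ± 1.73 FPKM in siMTFP1 libraries and 7.71 ± 0.769 FPKM in NC libraries (SD, n = 3 each). CCNB1 made up 91.4% to 93.2% of the FPKM of the 3 B-type cyclin genes in siMTFP1 libraries and 91.5% to 92.3% in NC libraries. CCNA2 made up 95.6% to 97.4% of that of the 2 A-type cyclin genes in siMTFP1 libraries and 96.0% to 96.9% in NC libraries.

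The CKS genes were the most abundant members. CKS1B was at 22067, 26121 and 30358 FPKM in siMTFP1 libraries, against 21826, 26618 and 32887 FPKM in NC libraries. The highest and the lowest value were both in NC libraries, and CKS1B alone held 2.81% to 3.40% of the FPKM sum in siMTFP1 libraries and 2.65% to 3.81% in NC libraries. CKS2, which in mouse is needed for meiosis, was at 9825, 11297 and 12989 FPKM in siMTFP1 libraries, against 9773, 10758 and 10493 FPKM in NC libraries. 2 of 3 siMTFP1 libraries lay above all NC libraries, and siMTFP1 1 lay next to NC 1, the lowest. CKS1B and CKS2 encode closely related proteins, and the sources used here do not give the treatment of reads that match both, so the split between them is uncertain.

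Among the inhibitory kinases, the oocyte kinase WEE2 stood far above the others. WEE2 was at 461, 389 and 391 FPKM in siMTFP1 libraries, against 371, 416 and 336 FPKM in NC libraries. The top value was that of siMTFP1 1, and the remaining siMTFP1 libraries lay within the NC range. PKMYT1, a membrane-bound kinase that also phosphorylates CDK1, was at 3.68, 3.41 and 5.50 FPKM in siMTFP1 libraries, against 5.30, 4.51 and 4.00 FPKM in NC libraries. siMTFP1 1 and siMTFP1 2 lay below the NC libraries and siMTFP1 3 above them. The somatic kinase WEE1 was near 0, at 0.11, 0.06 and 0.23 FPKM in siMTFP1 libraries, against 0.13, 0.19 and 0.15 FPKM in NC libraries. WEE2 thus held 98.6% to 99.2% of the FPKM of WEE1, WEE2 and PKMYT1 in siMTFP1 libraries and 98.6% to 98.9% in NC libraries.

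Of the activating phosphatases, CDC25C was the more abundant. CDC25C was at 105.1, 89.1 and 99.1 FPKM in siMTFP1 libraries, against 104.9, 110.5 and 120.2 FPKM in NC libraries. siMTFP1 1 and NC 1 were almost equal, and the remaining siMTFP1 libraries lay below all NC libraries. CDC25B, the phosphatase that mouse oocytes need to resume meiosis, was at 14.03, 14.54 and 22.6 FPKM in siMTFP1 libraries, against 16.0, 16.6 and 15.1 FPKM in NC libraries. siMTFP1 3 lay above the NC libraries and the other siMTFP1 libraries below them. The third family gene, CDC25A, averaged 4.27 ± 1.56 FPKM in siMTFP1 libraries and 3.18 ± 0.541 FPKM in NC libraries (SD, n = 3 each). CDC25C made up 78.9% to 84.0% of the FPKM of the 3 CDC25 genes in siMTFP1 libraries and 84.1% to 86.9% in NC libraries, so each siMTFP1 library lay below each NC library, by a small margin at the edge. The shares of CCNB1, CCNA2, CKS1B and WEE2 in their families overlapped between the groups. Among all tested genes 11.0% did not overlap. The CDC25C share was computed after the values were seen and was not tested.

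**Figure D2:**
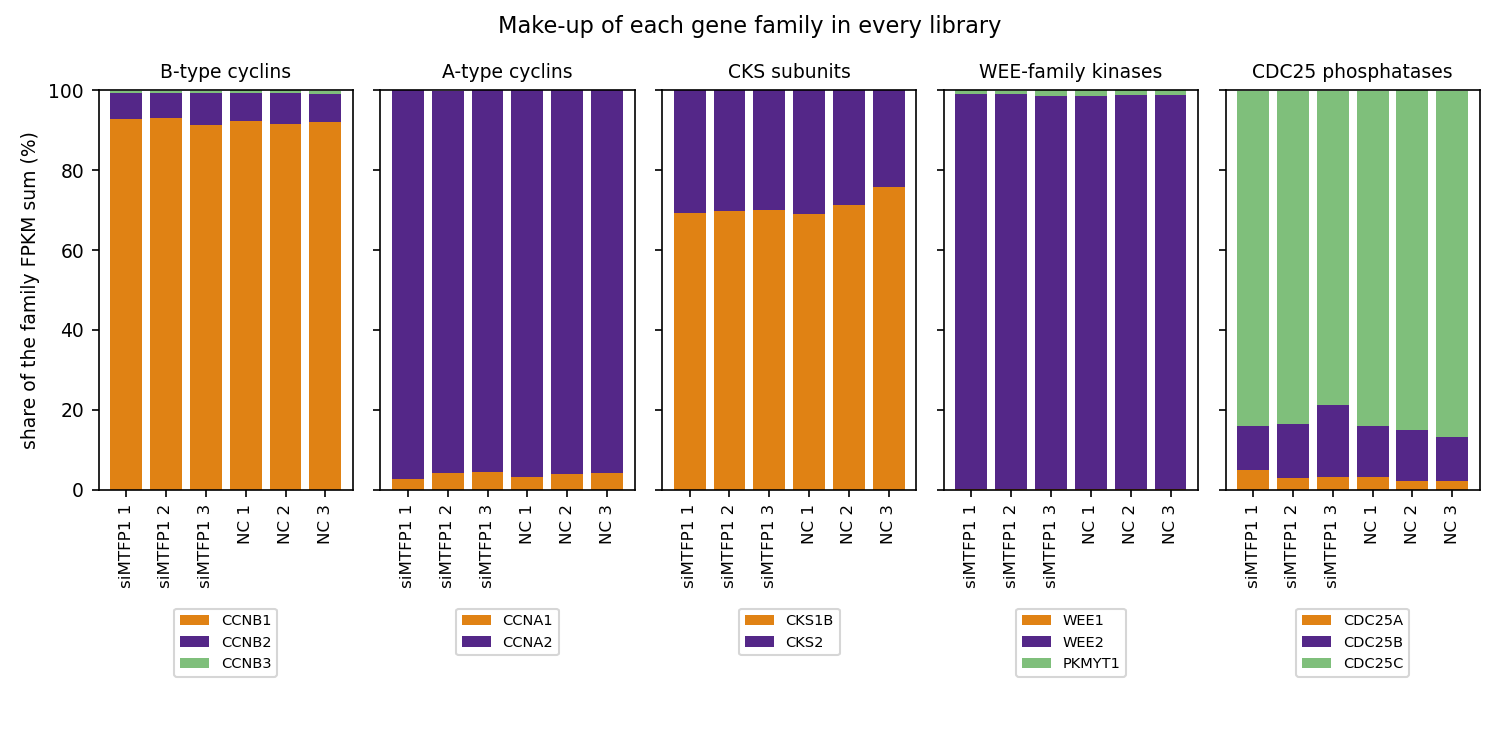
Share of each gene in the FPKM sum of its family (vertical axis, percent; bars start at 0) in the 3 siMTFP1 libraries and, to their right, the 3 NC libraries. CCNB1, CCNA2, CKS1B, WEE2 and CDC25C lead their families in each of the 6 libraries, with CKS1B at 69.2% to 70.0% of the CKS sum in siMTFP1 libraries and 69.1% to 75.8% in NC libraries.

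Ratios within a library do not depend on how that library was scaled, and they are given as a description. CCNB1 exceeded CDK1 by 112, 129 and 112 times in siMTFP1 libraries, against 139, 90.5 and 103 times in NC libraries. The NC libraries held both the highest and the lowest ratio. CCNB2 exceeded CDK1 by 7.74 to 9.74 times in siMTFP1 libraries and by 7.88 to 10.5 times in NC libraries. CCNB1 exceeded CCNB2 by 11.5 to 15.1 times in siMTFP1 libraries and by 11.5 to 13.3 times in NC libraries. The ratio of CCNA2 to CCNB1 varied least of the 8 ratios, with 0.0294 to 0.0350 in siMTFP1 libraries and 0.0294 to 0.0333 in NC libraries.

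The ratio of CKS2 to CKS1B was 0.445, 0.432 and 0.428 in siMTFP1 libraries, against 0.448, 0.404 and 0.319 in NC libraries. The siMTFP1 libraries were almost equal, and NC 3 had the lowest ratio. Of the ratios that set enzymes against each other, WEE2 to PKMYT1 was 125, 114 and 71.2 in siMTFP1 libraries, against 70.1, 92.2 and 84.0 in NC libraries. WEE2 to CDC25B was 32.8, 26.8 and 17.3 in siMTFP1 libraries, against 23.2, 25.1 and 22.2 in NC libraries. CDC25B to CDC25C was 0.134, 0.163 and 0.228 in siMTFP1 libraries, against 0.153, 0.150 and 0.126 in NC libraries. In these 3 ratios siMTFP1 3 stood at one end of its group, and the groups overlapped in each of the 8 ratios.

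**Figure D3:**
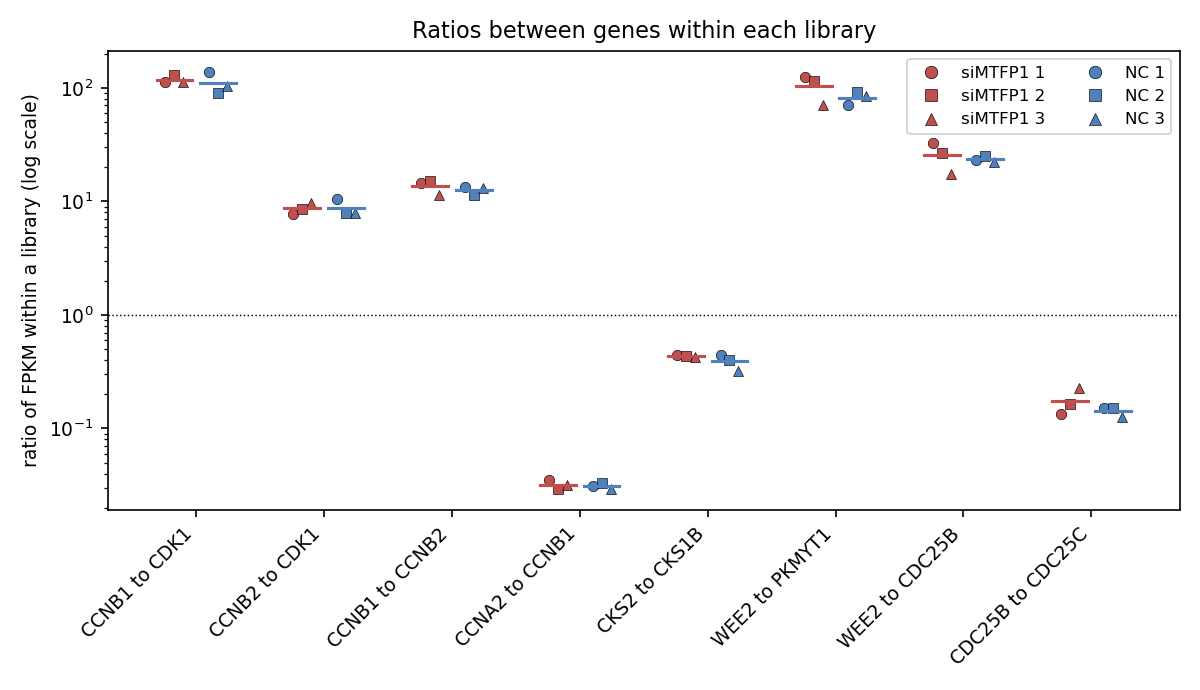
Ratio of the FPKM of 2 genes within a library (vertical axis, log scale; dotted line at 1) for the 8 pairs, in siMTFP1 libraries (red) and NC libraries (blue); points are libraries and lines are group means. The ratios run from 0.0294 for CCNA2 to CCNB1 up to 139 for CCNB1 to CDK1, and the groups overlap in each pair.

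The comparison of siMTFP1 with NC libraries asks whether the knockdown label goes with other RNA levels in metaphase II oocytes, and 0 of the 10 genes passed the threshold. The test was limma on log2(FPKM + 1) over the 9730 genes whose mean FPKM reached 1, a filter that all 10 genes passed, with Benjamini-Hochberg adjustment and a threshold of 0.05. It called 0% of all tested genes. At an unadjusted p under 0.05 it found 0 of the 10 genes, beside 635 genes or 6.53% of those tested (336 genes without siMTFP1 2). The groups did not overlap in 0 of the 10 genes, beside 11.0% of those tested. 5 of the 10 genes had a higher and 5 a lower mean log2 value in siMTFP1 libraries, with a median log2 difference of 0.00, beside 0.02 over all tested genes. The median size of the log2 difference, sign left out, was 0.08 over the 10 genes and 0.14 over all tested genes.

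CDC25C had the largest difference of the 10 genes, with means of 97.8 ± 8.07 FPKM in siMTFP1 libraries and 112 ± 7.74 FPKM in NC libraries (SD, n = 3 each). For CDC25C the log2 difference was -0.19 (95% interval -0.49 to 0.10, limma adjusted p = 0.867). WEE2 averaged 414 ± 40.6 FPKM in siMTFP1 libraries and 374 ± 40.0 FPKM in NC libraries, a log2 difference of 0.14 (95% interval -0.16 to 0.44, limma adjusted p = 0.898). CKS2 averaged 11370 ± 1583 FPKM in siMTFP1 libraries and 10342 ± 510.0 FPKM in NC libraries, a log2 difference of 0.13 (95% interval -0.15 to 0.40, limma adjusted p = 0.901). PKMYT1, the least abundant of the set, had a log2 difference of -0.12, with an interval from -0.57 to 0.32.

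For the core complex the differences were smaller still. CDK1 had a log2 difference of -0.05 (95% interval -0.40 to 0.30, limma adjusted p = 0.976). CCNB1 had one of 0.05, with an interval from -0.20 to 0.30, and CCNB2 one of -0.06, with an interval from -0.32 to 0.19. CCNA2 had a log2 difference of 0.09, with an interval from -0.18 to 0.37. CKS1B averaged 26182 ± 4146 FPKM in siMTFP1 libraries and 27110 ± 5547 FPKM in NC libraries, a log2 difference of -0.04 (95% interval -0.43 to 0.34). The log2 difference of CDC25B was 0.07, with an interval from -0.38 to 0.51, and it was -0.14 without siMTFP1 3. The sign of these small differences turned for CDK1 without NC 2 (0.03) or NC 3 (0.0010), for CCNB1 without siMTFP1 2 (-0.03) and for CKS1B without NC 3 (0.11) or siMTFP1 1 (0.07). Each of the 10 intervals holds 0 and ends short of a doubling or a halving. Differences inside these intervals remain possible with 3 libraries a group. The intervals are not the limit of detection, since ZP2 was not called at a log2 difference of -0.54 (limma adjusted p = 0.447).

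**Figure D4:**
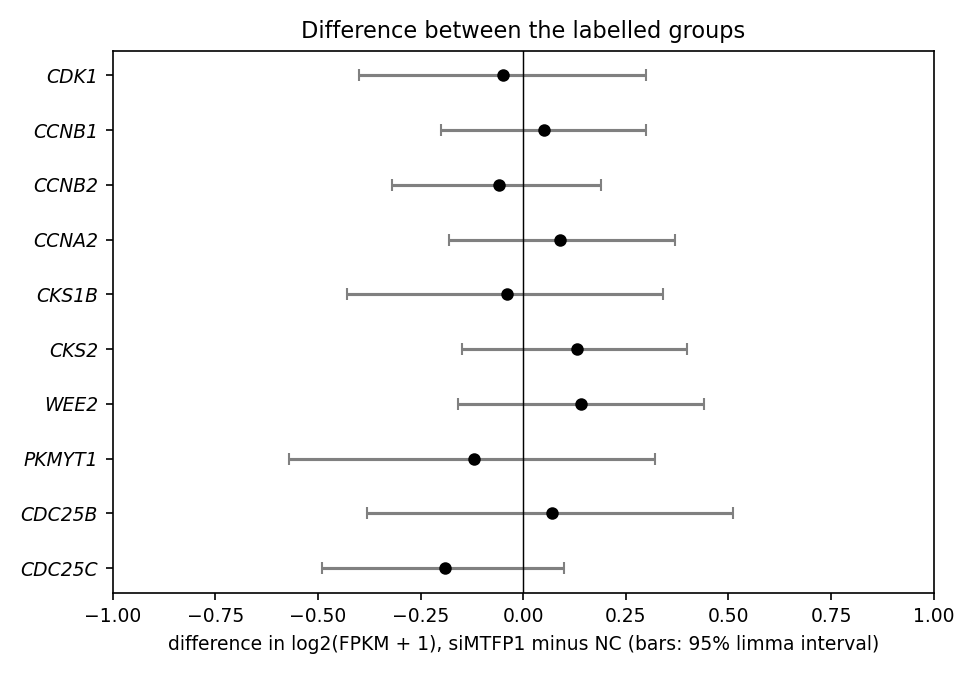
Difference between siMTFP1 and NC libraries in mean log2(FPKM + 1) (horizontal axis) for each of the 10 genes; points are limma estimates from 3 libraries a group and bars are 95% intervals. The estimates lie between -0.19 for CDC25C and 0.14 for WEE2, and each bar crosses 0.

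The spread between libraries was small for most of the set. The coefficient of variation over the 6 libraries ran from 5.63% for CCNB2 to 19.5% for PKMYT1, with a median of 10.8% beside 18.5% over all tested genes. In 8 of the 10 genes it lay below that median over all tested genes, and the exceptions were PKMYT1 and CDC25B at 19.1%, the genes with the lowest FPKM of the set. This describes these libraries, and the part of abundance in the spread was not tested. For CDK1 and CCNB1 the most alike patterns were sought among tested genes with a name, by the root mean square difference of log2 values centred on each gene's mean over the 6 libraries. For CDK1 they were those of TSPAN3 and TIMMDC1, each at 0.033, and SCPEP1 at 0.041, beside a root mean square of 0.145 for the centred values of CDK1 itself. For CCNB1 they were those of ROBO2 at 0.029, CAPZA2 at 0.030 and PTPN13 at 0.032, beside 0.101 for CCNB1 itself. SCPEP1, at 2.0 to 3.07 FPKM, and ROBO2, at 2.14 to 2.8 FPKM, are low genes whose fold changes log2(FPKM + 1) understates. These likenesses are the closest picked from all tested genes with a name, rest on 6 libraries and were not tested.

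The wider network of CDK1 control was read from 5 lists of 44 genes, of which 43 were matched and 37 tested. 0 of the 37 passed the threshold, beside 0% of all tested genes, and 0 had an unadjusted p under 0.05, beside 6.53% (limma). 17 were higher and 20 lower on average in siMTFP1 libraries, with a median log2 difference of -0.01. The CDK-activating kinase, which phosphorylates CDK1 on its activation loop, had 0 higher and 3 lower of 3 genes, with a median log2 difference of -0.30. Its assembly factor MNAT1 averaged 115 ± 3.62 FPKM in siMTFP1 libraries and 144 ± 25.1 FPKM in NC libraries (SD, n = 3 each), a log2 difference of -0.31 (limma adjusted p = 0.789). Its cyclin CCNH averaged 32.3 ± 4.79 FPKM in siMTFP1 libraries and 40.1 ± 4.96 FPKM in NC libraries. Its kinase CDK7 averaged 623 ± 24.5 FPKM in siMTFP1 libraries and 675 ± 24.2 FPKM in NC libraries. The groups overlapped in each of these 3 genes, while their FPKM sum was 753 to 802 in siMTFP1 libraries and 844 to 885 in NC libraries, without overlap. This sum, most of which is CDK7, was not tested. The sums of the other lists overlapped between the groups, and 11.0% of all tested genes did not.

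The Greatwall pathway restrains the phosphatase PP2A that removes CDK1 phosphorylations. The list holds genes of this pathway and of subunits of PP2A itself, so its counts join opposed roles and give no direction for the pathway. Of its 9 tested genes 5 were higher and 4 lower on average in siMTFP1 libraries. The regulatory subunit PPP2R2A averaged 11.1 ± 0.743 FPKM in siMTFP1 libraries and 9.46 ± 0.351 FPKM in NC libraries (SD, n = 3 each). The groups did not overlap in PPP2R2A, which had a log2 difference of 0.21 (limma adjusted p = 0.869). The catalytic subunit PPP2CB had a log2 difference of -0.28 and the scaffold subunit PPP2R1A one of 0.15. The Greatwall kinase gene MASTL was at 15.2 ± 1.60 FPKM in siMTFP1 libraries and 14.6 ± 0.356 FPKM in NC libraries, and ARPP19, whose product inhibits PP2A once Greatwall has phosphorylated it, at 183 ± 11.5 FPKM in siMTFP1 libraries and 192 ± 7.75 FPKM in NC libraries.

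The list of polo and aurora activators, which promote entry into division, also held the phosphatase gene CDC25A. Of its 5 genes 2, PLK1 and CDC25A, were higher and 3 lower on average in siMTFP1 libraries. The spindle kinase AURKA was the most abundant of the 37, with 3369 ± 198 FPKM in siMTFP1 libraries and 3539 ± 133 FPKM in NC libraries (SD, n = 3 each). The kinase PLK1 averaged 14.7 ± 1.13 FPKM in siMTFP1 libraries and 13.0 ± 1.86 FPKM in NC libraries, a log2 difference of 0.17, and CDC25A had a log2 difference of 0.30 (limma adjusted p = 0.884).

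Of the 9 tested genes for other cyclins and their kinases, 4 were higher and 5 lower on average in siMTFP1 libraries. CDK2, the closest relative of CDK1 among them, averaged 162 ± 11.8 FPKM in siMTFP1 libraries and 165 ± 11.8 FPKM in NC libraries (SD, n = 3 each), above CDK1 in both groups. The replication cyclin CCNE2 averaged 1.41 ± 0.654 FPKM in siMTFP1 libraries and 2.29 ± 0.463 FPKM in NC libraries, a log2 difference of -0.48 (limma adjusted p = 0.766). CCND2, a cyclin of early cell cycle entry, was at 2.85, 7.86 and 4.39 FPKM in siMTFP1 libraries, against 1.75, 4.58 and 0.12 FPKM in NC libraries. The log2 difference of CCND2 was 1.14 (limma adjusted p = 0.766) and 0.54 without NC 3. CCNB3 had a log2 difference of -0.14, and of 0.02 without NC 3.

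Of the 11 tested genes for CDK inhibitors, checkpoint kinases and phosphoprotein-binding YWHA proteins, 6 were higher and 5 lower on average in siMTFP1 libraries. The inhibitor CDKN1B averaged 29.8 ± 1.94 FPKM in siMTFP1 libraries and 35.6 ± 1.55 FPKM in NC libraries (SD, n = 3 each), and the groups did not overlap. The log2 difference of CDKN1B was -0.25 (limma adjusted p = 0.811). YWHAZ averaged 106 ± 9.80 FPKM in siMTFP1 libraries and 120.0 ± 3.23 FPKM in NC libraries, also without overlap, and YWHAB had a log2 difference of 0.18 with groups that overlapped. PPP2R2A, CDKN1B and YWHAZ were thus the 3 genes of the 37 whose groups did not overlap, beside 11.0% of all tested genes.

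**Figure D5:**
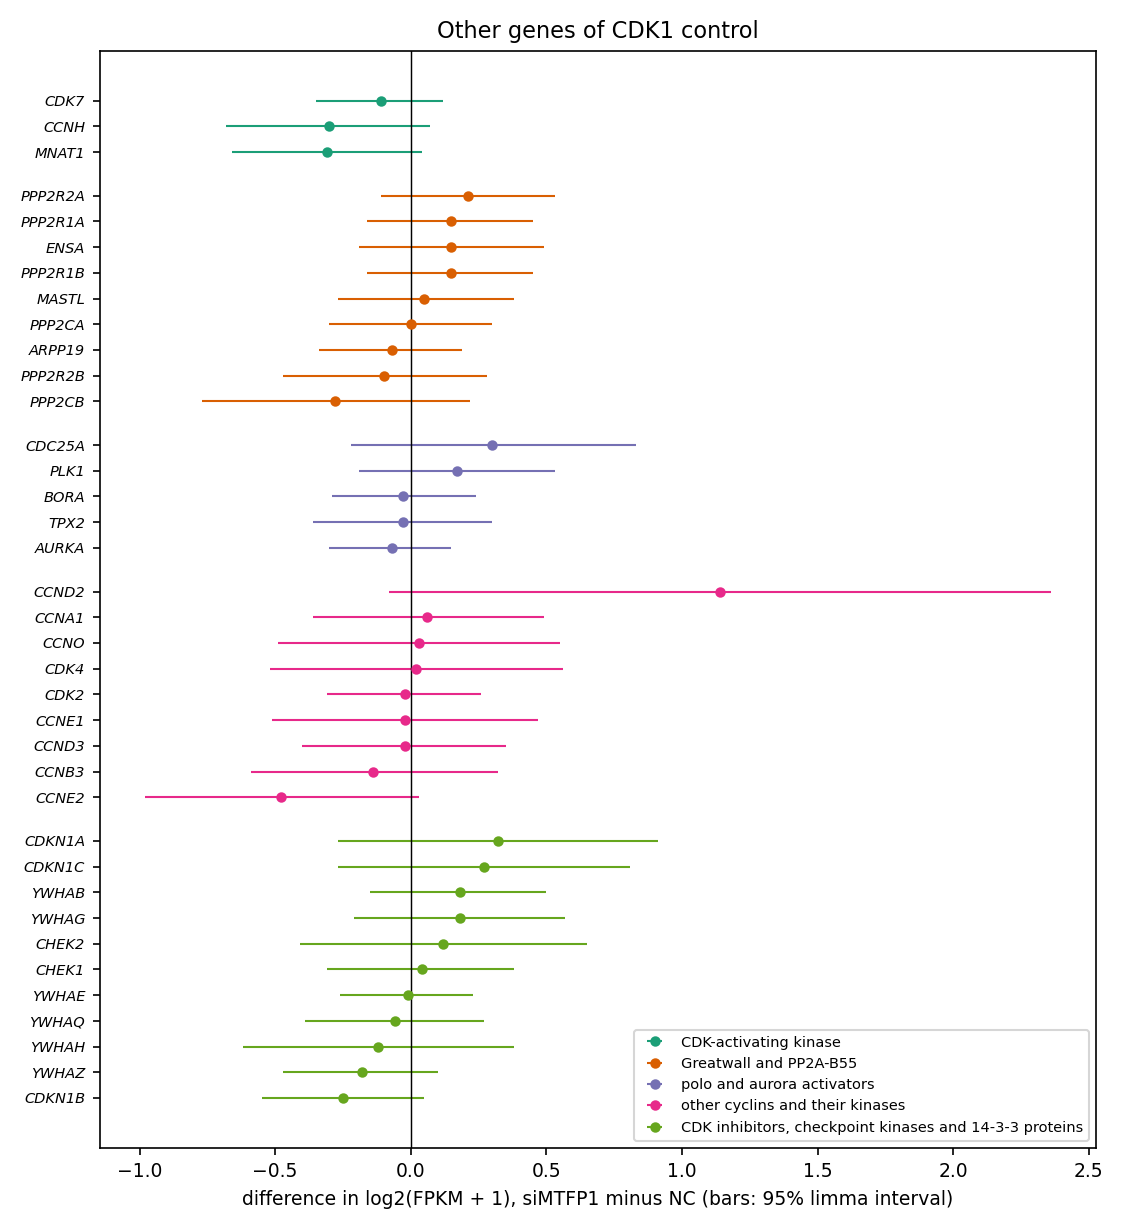
Difference between siMTFP1 and NC libraries in mean log2(FPKM + 1) (horizontal axis) for the 37 tested genes of the 5 lists, coloured by list; points are limma estimates from 3 libraries a group and bars are 95% intervals. Each bar crosses 0, and the widest belongs to CCND2 at 1.14.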

How the data were processed

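Per the labels' protocols, total RNA was extracted with TRIzol and libraries were made with a BGI mRNA kit; the sources used here do not say how the kit selected mRNA. The authors deposited FPKM values with 2 decimals for 17325 genes per library. RSEM 1.3.1, HISAT2 2.2.1, DESeq2 1.4.5, Bowtie2 2.3.4.3 and build ARS-UCD1.2 are listed, without roles, per the submitters' processing notes. Strand use and the division of shared reads were not given in the sources used here. FPKM is relative, so a very abundant gene lowers the values of the rest of its library.

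Libraries were grouped by title. The 9730 genes whose mean FPKM reached 1 were compared as log2(FPKM + 1) with limma 3.58.1 in R 4.3.3 (eBayes with trend, two-sided, group as the only term, Benjamini-Hochberg over all tested genes, threshold 0.05). On this scale fold changes of low genes are understated. The fit was first run on simulated data with genes drawn independently and planted changes larger than any difference among the 10 members. That run does not show how well differences as small as theirs would be found. MTFP1 was compared by an exact permutation test. Depth is unknown. For low values under 1 FPKM the most frequent log2 ratio between libraries was at most 0.1 from 0 in each of 15 pairs. FPKM is already relative to the library total and was rounded to 2 decimals, so this cannot show whether depths were alike. Members and lists were chosen with earlier results of these data known. Named genes are the 10 members, MTFP1, the 3 genes of each list with the smallest p, and the 3 genes closest in pattern to CDK1 and to CCNB1. Other genes (WEE1, CCNA1, CDK2, MASTL, ARPP19 and the markers) were chosen after their values were seen, as were the family shares. Alternatives were pseudocounts, filters, scalings, a replicate block, array weights and leaving out each library. Python 3.11.15 and matplotlib 3.10.9 were used for tables and plots.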

Additional observations from a re-analysis of the deposited data

How the results depend on the processing

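The 15 other settings that were run called 0 of the 10 members and 0 of the other pathway genes, whose settings were added after the data were seen. Over all genes limma called 2 with a mean FPKM of at least 5, 2 with FPKM rescaled to equal sums, 0 to 2 when a library was left out and 0 in the other settings. Of 149 alternative values over the members, 7 lay in the other direction, in 4 genes. Leaving out a library gave log2 differences from -0.19 to 0.03 for CDK1, -0.03 to 0.12 for CCNB1, -0.19 to 0.11 for CKS1B, -0.14 to 0.18 for CDC25B and -0.35 to 0.02 for CCNB3. Array weights gave -0.02 for CDC25B, and quantile normalization gave 0 for CCNB1 and 0.02 for AURKA. The causes were not tested. The other 6 members kept their direction throughout, with CDC25C between -0.25 and -0.13. Its smallest limma adjusted p was 0.486, with array weights. MTFP1 gave 0.14 to 0.44 without a library and 0.96 with a pseudocount of 0.1. An unadjusted p under 0.05 was reached by 635 genes with the settings of the report, 358 with the filter of 5, 1037 with no filter, 1080 with array weights and 336 to 764 without a library; it was reached by 376 higher and 259 lower genes, which turned to 306 and 358 after quantile normalization. PKMYT1 had no value with the filter of 5.

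The replicate numbers are not shown to pair the libraries. Deviations from the group means of same-numbered libraries correlated at 0.0342, -0.163 and 0.0667 across genes. With the replicate block 0 genes were called and 630 had an unadjusted p under 0.05, against 635 without it, and CKS1B had a log2 difference of -0.04 (SE 0.08). Depth is unknown, so no counting error is given.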

Other observations

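CKS1B was close in libraries that share a replicate number, although deviations over all genes were not. It was at 22067 FPKM in siMTFP1 1 and 21826 FPKM in NC 1, at 26121 FPKM in siMTFP1 2 and 26618 FPKM in NC 2, and at 30358 FPKM in siMTFP1 3 and 32887 FPKM in NC 3. The SE of its log2 difference was 0.17 without and 0.08 with the replicate number as a block. CKS2 had its lowest value of each group in the libraries numbered 1 as well, at 9825 FPKM in siMTFP1 1 and 9773 FPKM in NC 1. Its highest values were in siMTFP1 3 and NC 2, so the order of CKS1B was not kept. CDK1 was the highest of its group in siMTFP1 1, at 58.9 FPKM, and the lowest in NC 1, at 48.86 FPKM. The SE without and with the block was 0.12 and 0.1 for CKS2, and 0.15 and 0.16 for CDK1. The labels do not say what the numbers mark. The likeness in CKS1B was noticed after the values were seen and was not tested.

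Among enzymes of low level, siMTFP1 3 had the highest CDC25B of the 6 libraries, at 22.6 FPKM, and the highest PKMYT1, at 5.50 FPKM. Its ratio of WEE2 to CDC25B, which falls as CDC25B rises, was the lowest, at 17.3. Other enzymes of low level did not share this. MASTL was the lowest of the 6 libraries in siMTFP1 3, at 13.7 FPKM. PLK1 was the lowest of its group there, at 13.41 FPKM, and CDC25A, at 3.88 FPKM, lay between siMTFP1 1 and 2. The cumulus and granulosa markers of siMTFP1 3 summed to 166 FPKM, against 192 and 213 FPKM in siMTFP1 1 and 2. Its blood markers summed to 58.3 FPKM, against 24.4 and 25.5 FPKM, and nearly all of each sum was HBA. HBA was at 57.87 FPKM in siMTFP1 3, inside the range of 45.07 to 74.09 FPKM in NC libraries. The markers of dividing somatic cells summed to 586 FPKM in siMTFP1 3, against 455 and 534 FPKM, and most of each sum was TYMS. MKI67, TOP2A and RRM2 went the other way, with their lowest siMTFP1 values in siMTFP1 3, at 0.71, 16.63 and 20.51 FPKM. The part of these markers in the values was not tested.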
